A study of Mus musculus with 2 samples.

Results

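The genes described here encode enzymes that write methylation on histone H3 lysine 9 (H3K9) and proteins that bind these enzymes. They are *Ehmt1*, *Ehmt2*, *Wiz*, *Zfp644*, *Zfp462*, *Cdyl*, *Setdb1*, *Suv39h2*, *Atf7ip* and *Trim28*. They were listed by name and not by any measured value, though with earlier results of these data known. They make up 10 of the 21938 protein-coding genes of GENCODE vM21 on mm10. From 10 kb upstream to the end of these genes lay 71 of the 116782 ATAC-seq peaks deposited for mouse embryonic stem cells (mESCs).

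Open chromatin was mapped by ATAC-seq, in which it is cut and tagged by the transposase Tn5, in EHMT2-dTAG-mcherry ESCs, labelled as a BL6/129 hybrid and derived from KH2 cells (C57BL/6J x 129S1 F1). In this line the stop codon of endogenous *Ehmt2* is replaced by a degron tag (dTAG), HA tags and a mCherry reporter, and the degrader dTAG-13 removes the protein. All cells analysed here were kept for 24 h with DMSO, the vehicle, and thus still had EHMT2. The samples were 2 independent clones of 50000 cells, grown in medium with serum and LIF, each measured in 3 technical replicates. The authors called peaks on both clones merged. The values therefore have no spread between replicates, no difference between genes can be tested against replicate error, and clone differences could not be seen. For each peak they give a fold enrichment, the ratio of fragments stacked at the summit to those of the background. The number of fragments over the summit was calculated back from this ratio and its p-value, and its exact Poisson 95% interval covers counting error only. The median peak of the list had 9 fragments and the minimum was 6. A peak open in few cells and a peak weakly open in all cells cannot be told apart in such bulk data.

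Methylated H3K9 marks silent chromatin. EHMT1 (GLP) and EHMT2 (G9a) form a heterodimer that places mono- and dimethylation in euchromatin, and zinc finger proteins such as WIZ bring it to DNA. Trimethylation is placed by SETDB1, which TRIM28 (KAP1) recruits to retrotransposons through KRAB zinc finger proteins, and by SUV39H1 and SUV39H2 at constitutive heterochromatin. In mESCs these enzymes keep endogenous retroviruses and lineage genes silent.

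Accessibility of the labelled cell type was checked first. Of 10 pluripotency genes, 7 had a peak over the gene start and 9 over an annotated transcript start, where the shares of all protein-coding genes were 59.2% and 66.6%. The count of gene starts is near that background and does not identify the cell type by itself. *Zfp42* had the most, with 151 fragments, and *Pou5f1* had 17. No transcript start of *Sox2* lay in a peak, and the nearest peak was 130 bp from its gene start. Of 10 fibroblast genes, which mark the feeder layer, 3 had a peak over the gene start, a share below 59.2%, namely *Twist1* with 28 fragments, *Pdgfrb* with 12 and *Thy1* with 11. *Col1a1* and *Col1a2* had a peak over another transcript start, with 18 and 23 fragments, while *Col3a1*, *Postn*, *Dcn*, *Lum* and *Prrx1* had none. A contribution of feeder cells to the peaks of the H3K9 genes was not tested.

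The reference sequences upstream of 5 start sites show how unlike the promoters of these genes are, and are given here because they lie at the peaks described below or just beside one. Each ends at the base before the first annotated exon and is written along the direction of transcription. Capitals mark the GC box GGGCGG, the E-box CACGTG and the cAMP response element TGACGTCA on either strand. The start sites are those of RefSeq on GRCm38.p6. *Ehmt1*, *Ehmt2* and *Cdyl* were taken by the rule for named genes, and *Trim28* because its peak had the most fragments of all 71. *Suv39h2* was chosen after its values were seen.
Ehmt1, chr2:24919615-24919809, minus strand: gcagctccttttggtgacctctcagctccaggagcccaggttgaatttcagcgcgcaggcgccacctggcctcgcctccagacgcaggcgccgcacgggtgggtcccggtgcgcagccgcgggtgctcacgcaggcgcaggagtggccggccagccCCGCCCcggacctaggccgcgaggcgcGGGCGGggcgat
Ehmt2, chr17:34898274-34898468, plus strand: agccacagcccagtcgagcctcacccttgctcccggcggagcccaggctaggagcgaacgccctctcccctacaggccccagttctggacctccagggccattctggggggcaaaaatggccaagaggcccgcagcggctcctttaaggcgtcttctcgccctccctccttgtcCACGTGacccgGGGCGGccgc
Cdyl, chr13:35659662-35659832, plus strand: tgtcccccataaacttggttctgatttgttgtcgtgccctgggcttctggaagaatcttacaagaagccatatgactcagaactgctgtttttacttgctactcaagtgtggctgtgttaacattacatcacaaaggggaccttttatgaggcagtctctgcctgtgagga
Trim28, chr7:13023952-13024151, plus strand: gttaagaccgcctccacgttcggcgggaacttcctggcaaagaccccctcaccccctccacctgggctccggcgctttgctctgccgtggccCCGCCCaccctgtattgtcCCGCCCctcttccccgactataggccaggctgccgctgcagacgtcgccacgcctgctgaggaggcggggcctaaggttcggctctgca
Suv39h2, chr2:3475032-3475186, minus strand: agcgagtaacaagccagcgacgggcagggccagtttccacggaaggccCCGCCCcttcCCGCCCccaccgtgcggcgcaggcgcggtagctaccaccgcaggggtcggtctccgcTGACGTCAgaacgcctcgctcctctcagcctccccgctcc
The stretch of *Ehmt1* holds 23 CpG dinucleotides in 195 bases and that of *Cdyl* holds 1 in 171 bases. In between lie *Suv39h2* with 18 CpGs in 155 bases, *Trim28* with 16 in 200 bases and *Ehmt2* with 13 in 195 bases. The first *Cdyl* promoter is thus nearly free of CpGs and holds none of the letters marked.

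A peak covered the gene start, taken as the first base of the gene record, in 6 of the 10 genes. Over all protein-coding genes this share was 59.2%. With a stricter threshold, a −log10 q of 10 or more, 4 of the 10 starts lay in a peak, against 45.0% of all genes. The genes with a start peak were *Ehmt1*, *Ehmt2*, *Wiz*, *Zfp462*, *Cdyl* and *Setdb1*. Their start peaks had a median of 21.5 fragments and a median fold enrichment of 6.54. Over the start peaks of all 12990 protein-coding genes that have one, the medians were 34 fragments and 8.68, with quartiles of 20 and 55 fragments. None of the 6 start peaks exceeded the median of 34 fragments.

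The first base of a gene record is not always the start that is open. When any annotated transcript start was allowed, all 10 genes had a peak, against 66.6% of protein-coding genes. At the stricter threshold 9 of the 10 had one, against 50.5%, a count added after seeing the data. The 10 genes have 4 to 17 annotated transcript starts each, and 52 of their 98 starts lay in a peak. A gene with more starts has more bases that can count, and the shares of all genes were not matched for this. The strongest transcript start peak of each gene ranged from 13 to 69 fragments. Its median over the 10 genes, also added after seeing the data, was 30.5 fragments. The corresponding median over all 14609 protein-coding genes with such a peak was 33. *Trim28*, *Atf7ip* and *Cdyl* lay above it and the other 7 below. In the plot of fragments at gene starts and transcript starts, these 3 are also the genes in which both measures differ most.

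**Figure D1:**
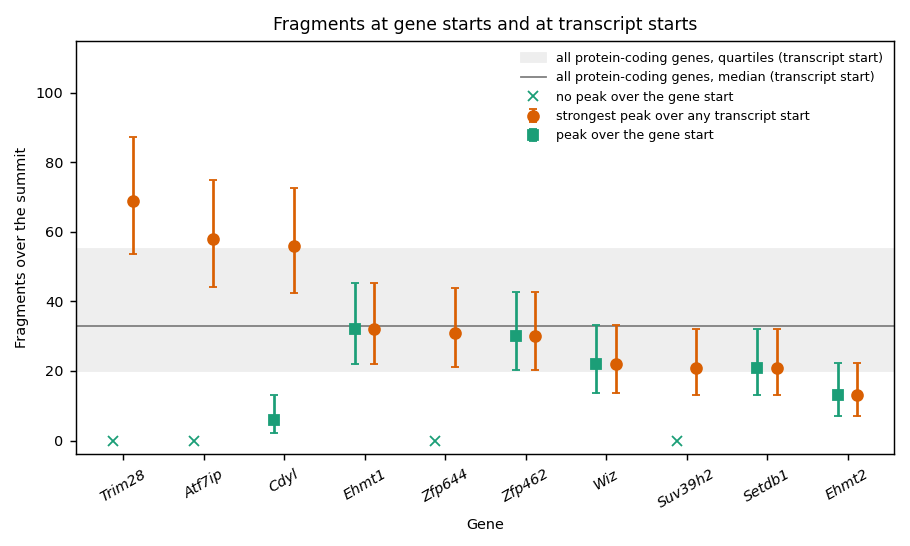
Fragments over the summit (y axis) for each gene (x axis), for the peak over the gene start (squares, crosses at 0 where there is none) and for the strongest peak over any annotated transcript start (circles); bars are exact Poisson 95% intervals, and the line and band are the median of 33 and the quartiles over all protein-coding genes with a transcript start peak. Trim28, Atf7ip and Cdyl reach 56 to 69 fragments at a transcript start while their gene start has 6 fragments or no peak.

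In descending order the strongest transcript start peaks had 69 fragments in *Trim28*, 58 in *Atf7ip*, 56 in *Cdyl*, 32 in *Ehmt1*, 31 in *Zfp644*, 30 in *Zfp462*, 22 in *Wiz*, 21 each in *Setdb1* and *Suv39h2*, and 13 in *Ehmt2*. The counting intervals of all 9 pairs of neighbours in this order overlapped. Of the 45 possible pairs, 28 overlapped and 17 did not. Each of the 17 separate pairs had *Trim28*, *Atf7ip* or *Cdyl* as the higher gene. The interval of *Ehmt2* was separate from those of these 3 genes and overlapped those of the other 6. These intervals do not include clone or library differences. Nor do they allow for the choice of the summit and of the strongest peak per gene, so their overlap is a description and not a test.

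Both genes of the EHMT heterodimer had a peak over the gene start. At *Ehmt1* (chr2:24789928-24919614, minus strand), the peak at chr2:24918895-24919994 had 32 fragments (21.9 to 45.2) and a fold enrichment of 8.33. It covers 8 annotated transcript starts of the gene, and its percentile among the start peaks of protein-coding genes was 47.6. At *Ehmt2* (chr17:34898469-34914052, plus strand), the peak at chr17:34898133-34899183 had 13 fragments (6.92 to 22.2) and a fold enrichment of 3.33. This is at the percentile of 11.99, below the lower quartile of 20 fragments. The intervals of both genes overlapped narrowly, between 21.9 and 22.2 fragments. The *Ehmt2* peak also covers the start of *C2*, which encodes a complement component, so its fragments cannot be assigned to 1 of the 2 genes.

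*Ehmt2* was densely covered for its small size. Its 25.6 kb region held 4 peaks with the start peak, or 1.56 per 10 kb, above 90.4% of protein-coding genes. Without start peaks it held 3, or 1.17 per 10 kb, where the median of protein-coding genes was 0.441. The strongest was an intronic peak 13615 bp downstream of the start, at chr17:34911886-34912434, with 25 fragments (16.2 to 36.9) and a fold enrichment of 7.39. It had more fragments than the start peak, although the intervals overlapped. A weaker peak 12833 bp downstream had 9 fragments. A further peak 4148 bp upstream, at a transcript start of the zinc finger gene *Zbtb12*, had 23 fragments. The intronic peak ends 1386 bp before the last base of the stop codon, where the degron cassette was inserted. The cassette is not part of mm10, so reads from it were not placed there.

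The region of *Ehmt1* was sparser. It held 6 peaks in 140 kb, or 0.430 per 10 kb, where the median of protein-coding genes was 0.632. Apart from the start, the strongest lay 9630 bp upstream with 23 fragments and a fold enrichment of 7.89, followed by 13 fragments at 8732 bp upstream. Both of these lie within another gene, *Arrdc1*. The 3 peaks inside *Ehmt1* had 6, 7 and 9 fragments, of which the one with 6 covers the start of a shorter transcript.

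The zinc finger partners of the EHMT complex differed in where they were open. *Wiz* (chr17:32354055-32389439, minus strand) had a start peak of 22 fragments (13.8 to 33.3) with a fold enrichment of 7.88, at chr17:32388696-32389782. This peak covers 7 of its transcript starts and a predicted small RNA gene, Gm22201. Inside the gene, peaks covered the starts of the shorter transcripts Wiz-208, with 13 fragments, and Wiz-207, with 19 fragments. The Wiz-208 peak is also at the start of the noncoding gene Gm26858 and is 84.4% repeat-masked. The *Wiz* peak with the most fragments, 27 (17.8 to 39.3) at 13395 bp downstream, is 83.2% repeat-masked. Its fold enrichment of 7.49 was below that of the start peak, and the intervals of both overlapped. The neighbouring peak of 18 fragments is 95.6% repeat-masked. Reads that match several copies of a repeat equally well were placed at random by the authors, so fragments at these peaks can stem from other copies.

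*Zfp644*, which encodes a partner of WIZ in the complex, had the fewest peaks. The base at its gene start (chr5:106616739-106697287, minus strand) belongs to a noncoding transcript and lay 139 bp outside the nearest peak. That peak, at chr5:106695634-106697148, covers 11 transcript starts of the gene and had 31 fragments (21.1 to 44.0) with a fold enrichment of 6.11. The start of the predicted gene Gm28039 lies in the same peak. The only other peak of the 90.5 kb region, 62928 bp downstream, had 6 fragments. With 0.221 peaks per 10 kb *Zfp644* was the lowest of the 10 genes.

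*Zfp462*, which encodes a zinc finger protein that binds EHMT1 and EHMT2 in mESCs, showed the opposite layout. Its start peak at chr4:54944731-54946485 had 30 fragments (20.2 to 42.8) and a fold enrichment of 5.20. A further 13 peaks followed inside the gene (chr4:54945048-55083563, plus strand), none over a transcript start of *Zfp462* or over the start of another gene. The strongest, in an intron 47124 bp downstream at chr4:54991842-54992647, had 38 fragments (26.9 to 52.2) and a fold enrichment of 8.02. Intronic peaks at 35014 bp and 60255 bp downstream had 19 and 22 fragments, with fold enrichments of 7.87 and 7.47. A peak in a coding exon 105167 bp downstream had 18 fragments. The interval of the strongest internal peak overlapped that of the start peak, while 4 of the internal peaks had only 6 fragments.

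*Cdyl*, which encodes a chromodomain protein that binds methylated H3K9 and the EHMT enzymes, had the weakest gene start of the 6. The peak over it, at chr13:35659563-35660061, had 6 fragments (2.2 to 13.1), the minimum of the list, and a fold enrichment of 3.24. In contrast, the peak at chr13:35740571-35742065, which covers the start of the transcript Cdyl-202 at 81480 bp downstream, had 56 fragments (42.3 to 72.7) and a fold enrichment of 7.04. Both intervals are far apart. The RefSeq windows of 300 bases at these starts differ likewise. The first holds 3 CpGs and the pair at the downstream starts 34 and 32, where GGGCGG occurs 8 and 7 times. The windows of this pair overlap, so shared bases count in both. Peaks of 27 and 29 fragments lay within 3 kb upstream of the downstream start. Another intronic peak, 193223 bp downstream at chr13:35852718-35853714, had 50 fragments (37.1 to 65.9) and the highest fold enrichment of the gene, 9.51. The remaining 9 peaks of the gene had 6 to 12 fragments.

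**Figure D2:**
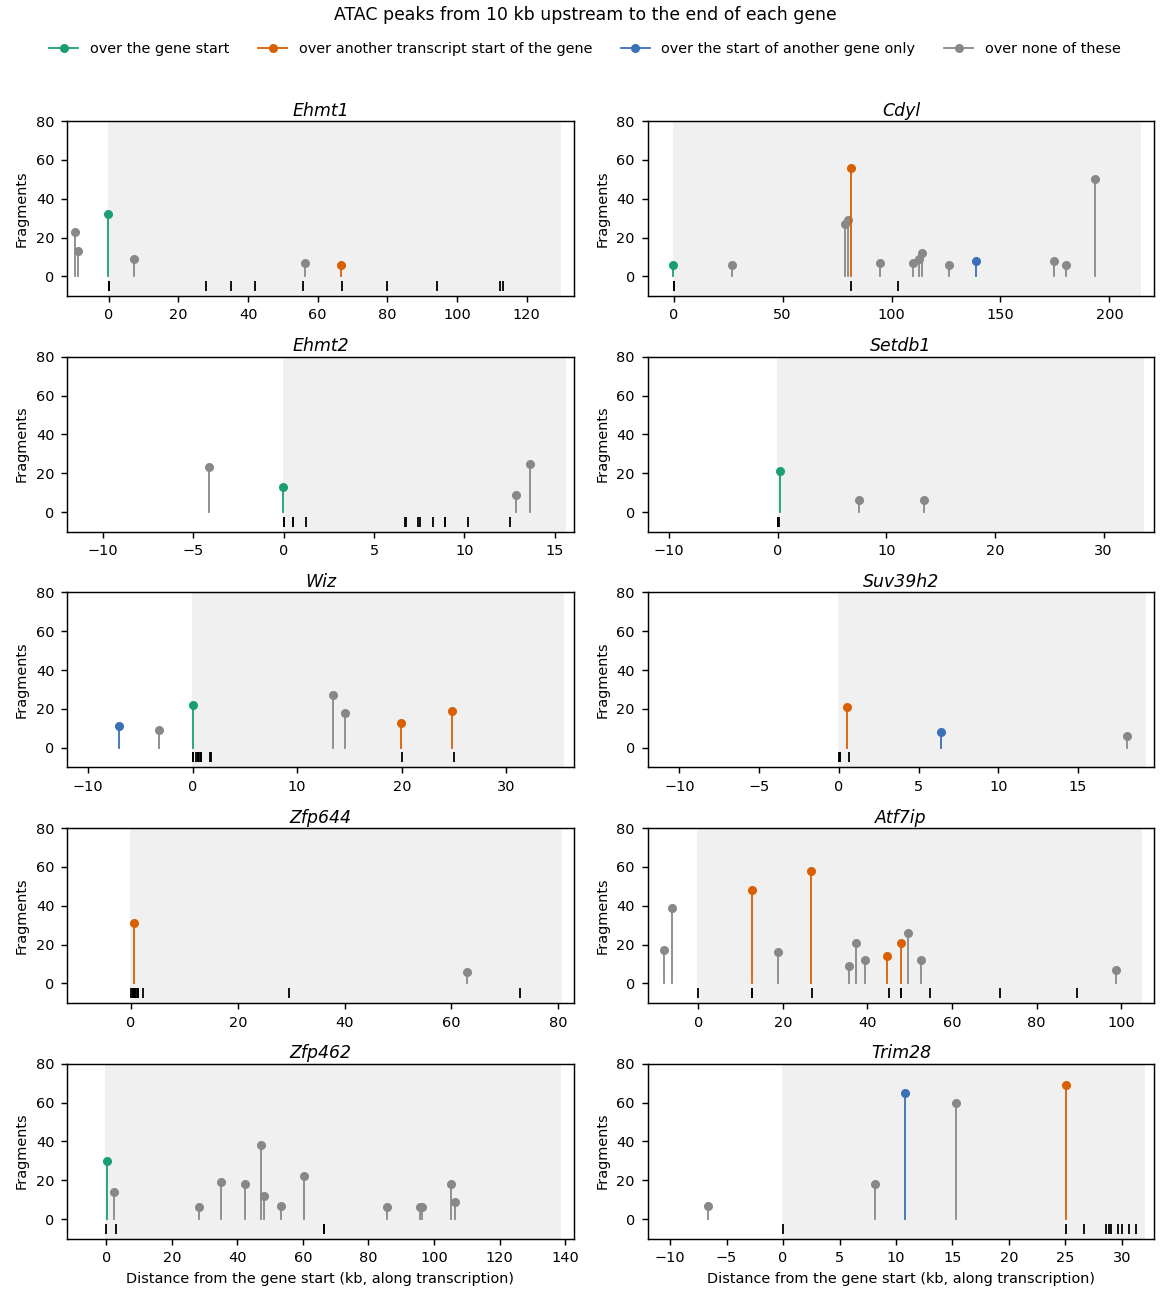
Fragments over the summit of every peak (y axis) against its distance from the gene start in kb along the direction of transcription (x axis), 1 panel per gene; colours give what the peak covers, the grey field is the gene and black ticks are annotated transcript starts. Trim28, Atf7ip and Cdyl have their highest transcript start peak 25 to 81 kb inside the gene record, and Zfp462 has 13 internal peaks that cover no start.

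Among the writers of H3K9 trimethylation, *Setdb1* (chr3:95323525-95357202, minus strand) had a single strong peak. It lies over the start at chr3:95356204-95357485, covers all 5 annotated transcript starts and had 21 fragments (13.0 to 32.1) with a fold enrichment of 8.21. Both other peaks of the gene had 6 fragments. *Suv39h2* (chr2:3455815-3475031, minus strand) also had 21 fragments, with a fold enrichment of 10, in a peak at chr2:3473490-3474806. This peak does not reach the gene start, which is 225 bp away, nor the RefSeq start at 180 bp. It covers the start of another annotated transcript, 612 bp downstream. The CpG-rich stretch of *Suv39h2* printed above, which carries TGACGTCA and 2 GC boxes, therefore lies just outside the peak. The other peaks of *Suv39h2* had 8 and 6 fragments, the first at the start of the noncoding gene Gm13184.

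The genes of both SETDB1 partners had no peak over the gene start and the strongest peaks inside. *Atf7ip* (chr6:136506167-136610862, plus strand) encodes a protein that stabilises SETDB1 in the nucleus. The record starts with a transcript whose preceding 200 bases are 94.5% repeat-masked and hold 1 CpG, and the nearest peak is 6007 bp away. The peak at chr6:136518478-136519266 covers the starts of 4 other transcripts and the noncoding gene Gm44140, and had 48 fragments (35.4 to 63.6) with a fold enrichment of 12.4. The peak at chr6:136532038-136533222, over the start of the transcript Atf7ip-207, had 58 fragments (44.0 to 74.98) and the highest fold enrichment of all 71 peaks, 14.7. The intervals of both overlapped. Peaks of 14 and 21 fragments covered further transcript starts, and 39 fragments with a fold enrichment of 10 were found 6330 bp upstream of the record. In all, *Atf7ip* had 13 peaks, of which 5 passed the stricter threshold.

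*Trim28* (chr7:12999114-13031035, plus strand) had the peak with the most fragments. At chr7:13022944-13025108, over the start of Trim28-201, 69 fragments (53.7 to 87.3) were found, with a fold enrichment of 7.53. In fold enrichment this peak was below that of *Atf7ip* as the local background was 8.30 fragments against 3.02. The gene record starts 25038 bp earlier with a noncoding transcript, whose preceding 200 bases hold no CpG and whose first base is 6513 bp from a peak. Between both starts lay a peak of 65 fragments (50.2 to 82.8) over the start of the zinc finger gene *Zbtb45* and a peak of 60 fragments (45.8 to 77.2) over no gene start. The intervals of these peaks and of the peak over Trim28-201 overlapped. A further peak between both starts had 18 fragments (10.7 to 28.4) and the lowest fold enrichment of all 71 peaks, 2.43.

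Most of the 71 peaks did not cover a start, as in the list as a whole. No transcript start of any gene lay in 49 peaks or 69.0%, against 84.6% of all peaks. Counting other genes by the first base of their record only, a transcript start of the gene itself lay in 17 and the start of another gene in 9, while 50 covered neither and 5 covered both. Since the regions run from upstream to the gene end, every summit lay in 1 of 3 places, and 50 lay in introns, 10 in exons and 11 upstream. The median was 13 fragments, against 9 for all peaks, and 24 peaks or 33.8% passed the stricter threshold, against 22.2% of all peaks. The minimum of 6 fragments was found in 13 peaks or 18.3%, against 24.8% of all peaks. At least 50% of the bases were repeat-masked in 6 of the 71 or 8.45%, against 21.1% of all peaks. By rule each region holds a gene start and a gene body, while the whole list also holds peaks between genes. Start peaks of protein-coding genes had a median of 34 fragments. The differences from all peaks are thus not a trait of the H3K9 genes by themselves. Peaks in the regions of other protein-coding genes were not compared.

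The number of peaks did not follow region length alone, as the plot of peaks against region length shows, since *Zfp644* had 2 peaks in 90.5 kb and *Wiz* 7 in 45.4 kb. The median over the 10 genes was 0.985 peaks per 10 kb, above the median of 0.632 for all protein-coding genes and below their upper quartile of 1.02. Of the 10 genes, 7 were above the median of all genes, and *Zfp644*, *Ehmt1* and *Cdyl* were not. *Ehmt2* and *Wiz*, with 1.56 and 1.54, were the highest. *Trim28* had 1.19 and *Atf7ip* 1.13. *Zfp462* and *Cdyl* had 14 peaks each, but spread over 149 and 224 kb.

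**Figure D3:**
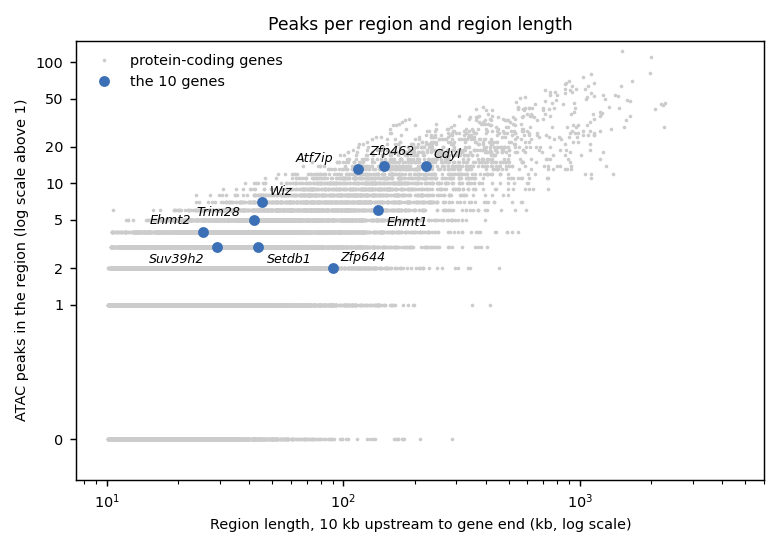
Number of ATAC peaks in each region (y axis, log scale above 1) against the length of the region from 10 kb upstream to the gene end in kb (x axis, log scale), for protein-coding genes (grey) and the 10 genes (blue). Zfp644 has 2 peaks in 90.5 kb and Ehmt2 has 4 in 25.6 kb.

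Base composition of the starts varied with the peaks. In the 200 bases before the gene start, protein-coding genes with a start peak had a median of 13 CpGs and those without had 2. The corresponding medians were 12.5 over the 6 H3K9 genes with a start peak and 3 over the 4 without. *Suv39h2* had 21 CpGs and no peak over the base of its gene start, while *Cdyl* had 2 CpGs and a peak of 6 fragments. RefSeq promoter windows of 300 bases were found for 9 of the 10 genes. All 16 such windows were searched on both strands, and 14 lay with their start in a peak, against 47.2% of all 32817 windows. The GC box GGGCGG was found in 12 of the 16 and at least once in each of the 9 genes, against 35.6% of all windows. Of the 16 windows, 14 held more CpGs than the median of 7 over all windows, and GGGCGG itself holds a CpG. Windows of like CpG content were not compared. *Wiz*, *Cdyl*, *Ehmt2* and *Zfp644* gave more than 1 window each, some in the same peak, so these genes count repeatedly. The pair of downstream *Cdyl* windows overlaps, so shared bases count in both. The NFY letters GCCAAT were found in 3 windows (14.7% of all), the YY1 letters AAGATGGC in 2 (2.74%), the E-box CACGTG in 2 windows of *Ehmt2* (7.15%), the ETS letters CCGGAAG in 1 window, that of *Setdb1* (8.86%), and TGACGTCA in 1, that of *Suv39h2* (1.79%). The letters TATAAA (13.6%), GCATGCGC (2.71%) and TCTCGCGAG (0.676%) were in no window of the 9 genes. A match describes the letters only, and binding of any factor was not measured.

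Strong peaks inside 4 of the genes are shown by 75 bases on either side of their summits, because they had more fragments than most start peaks of these genes. The stretch of *Atf7ip* belongs to the peak over the start of Atf7ip-207, and the stretches of the other 3 genes belong to intronic peaks that cover no transcript start. For *Trim28* the stretch before its internal start stands above. The rule for printed sequences took the 3 genes whose peak of highest fold enrichment outside gene starts had the most fragments, which were *Trim28*, *Atf7ip* and *Cdyl*. The sequences of *Zfp462* and *Ehmt2* were added after their values were seen. All are given on the plus strand of mm10 and contain no annotated exon.
Atf7ip, 26567 bp downstream, chr6:136532659-136532809: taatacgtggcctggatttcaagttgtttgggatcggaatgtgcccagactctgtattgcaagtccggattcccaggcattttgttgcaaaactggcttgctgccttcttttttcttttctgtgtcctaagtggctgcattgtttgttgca
Cdyl, 193223 bp downstream, chr13:35852981-35853131: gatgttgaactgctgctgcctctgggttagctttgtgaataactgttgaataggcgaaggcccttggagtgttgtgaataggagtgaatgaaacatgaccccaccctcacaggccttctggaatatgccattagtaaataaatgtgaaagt
Zfp462, 47124 bp downstream, chr4:54992097-54992247: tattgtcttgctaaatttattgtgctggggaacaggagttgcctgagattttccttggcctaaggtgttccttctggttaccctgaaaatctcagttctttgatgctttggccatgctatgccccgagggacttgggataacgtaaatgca
Ehmt2, 13615 bp downstream, chr17:34912009-34912159: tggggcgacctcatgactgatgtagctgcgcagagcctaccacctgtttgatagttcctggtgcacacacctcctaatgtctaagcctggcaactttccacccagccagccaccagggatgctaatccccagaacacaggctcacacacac
These stretches hold 1 to 3 CpGs each, as does the first *Cdyl* promoter above with 1, whereas the other 4 promoters printed hold 13 to 23. None contains the letters searched in peaks away from starts, which is why no base is in capitals. In the 100 bases on either side of the summits of the 49 peaks of these genes that cover no transcript start of any gene, the letters AGGNGGC, part of the CTCF motif, were found in 10, against 17.8% of 98769 such peaks. GGGTGTGG (KLF) and TGANTCA (AP-1) were each found in 3 (3.08% and 7.19% of all). ATGCAAAT (OCT4), CAAGGTCA (ESRRB) and TTCCNGGAA (STAT) were each found in 1 (2.42%, 2.28% and 0.698%). The composite TTGTNATGC, whose last 4 letters are the first of the octamer, was in none (1.21%).

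The pathway holds many further genes. Of 32 further writers, partners, readers and erasers, 30 or 93.8% had a peak over the gene start, against 59.2% of all protein-coding genes, and 26 had one at the stricter threshold, against 45.0%. Their median was 40 fragments with a range of 10 to 103, and 17 of the 30 were above the median of 34. The 2 without were *Mecom*, with 8 fragments over another transcript start, and the demethylase gene *Kdm4c*, with 97. All 32 had a peak over some transcript start, against 66.6% of all genes, as did the 10 genes above. Both lists were drawn up by name, with earlier results of these data known, and the difference between them is a description.

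By role, the other writers ranged from *Setdb2* with 65 fragments to *Prdm16* with 13 among the 4 of 5 with a start peak. The EHMT partners *Zfp518b* and *Zfp518a* had 40 and 26. On the SETDB1 and HUSH side, where HUSH is a complex that silences retrotransposons with SETDB1, all 7 had a start peak, from *Resf1* with 84 to *Pphln1* with 29. Among readers of the mark, *Cbx5*, which encodes HP1α, had the most with 72 and *Cbx1*, which encodes HP1β, the fewest with 20. Of the pair that deposits histone H3.3, *Daxx* had 47 and *Atrx* 30. The erasers spanned the widest range, from *Kdm4b* with 103 to *Kdm1a*, which encodes the demethylase LSD1, with 10. *Ehmt2*, with 13 fragments, was near the low end of the 32 pathway genes, where *Prdm16* had 13, *Phf2* 11, *Kdm1a* 10 and *Mecom* 8 over a transcript start.

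**Figure D4:**
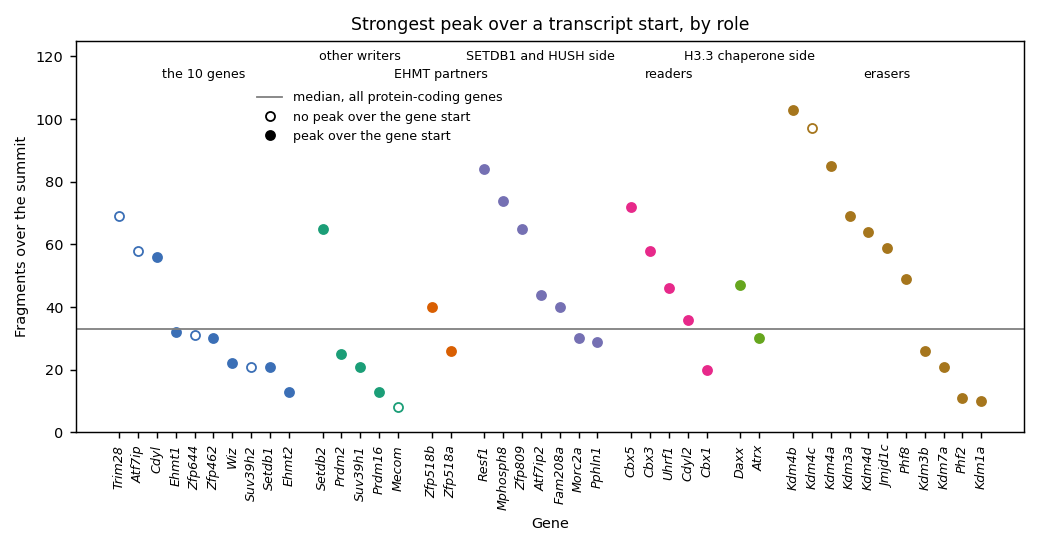
Fragments over the summit of the strongest peak over an annotated transcript start (y axis) for the 10 genes and for 32 other H3K9 pathway genes grouped by role (x axis); open circles have no peak over the gene start and the line is the median of 33 over protein-coding genes. Values run from 8 at Mecom to 103 at Kdm4b, and Ehmt2 has 13.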

How the data were processed

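ATAC-seq was performed by the authors on 2 clones of DMSO-treated EHMT2-dTAG mESCs, and the deposited file is 1 peak list for both clones merged. Per the submitters' processing notes, the tools were STAR 2.7.10, Picard 2.26.0, SAMtools 1.14, bedtools 2.30.0 and MACS2 2.2.6, and the build was mm10. Per the study's methods, duplicates were removed, fragments were shifted for the Tn5 cut position, and reads matching several places equally well were placed at random.

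The deposited fold enrichment is a ratio computed by the authors with MACS2, the pileup at the summit plus 1 over the local background plus 1. No background was below 1.16 fragments, a value shared by peaks of several genes. The −log10 p-value and −log10 q-value deposited for each peak belong to its summit, and the list ends at a q-value of 0.05. The deposited score was not used further. The fragment number was solved from ratio and p-value, came out whole for all 116782 peaks (within 0.001 of its size) and was checked on simulated data. Library totals were not analysed here.

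The annotation was GENCODE vM21, an earlier release than the study used for RNA-seq. A peak belonged to a gene if it overlapped the range from 10 kb upstream of the gene start to the gene end by 1 bp. Sequences were read from mm10 at start sites of RefSeq on GRCm38.p6, trimmed at annotated exons. Calculations used Python 3.11.15, NumPy 2.4.6, pandas 2.3.3, SciPy 1.17.1 and matplotlib 3.10.9.

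The genes, gene lists and motifs were chosen with earlier results of these data known. The rule for named items took the 10 genes, their start peaks, their transcript start peaks, the peak of highest fold enrichment per gene that covers no gene start, and the highest and lowest pathway gene of each role. For printed sequences it took the promoters of the genes with the most and fewest start fragments and of *Ehmt2*, and the 3 of those peaks with the most fragments. Alternatives were a −log10 q of 10 or more, other definitions of start and region, and other rankings. With 1 condition and no replicate values, no test was possible. Reads of the 129 allele were aligned to mm10 as well, and an effect of allelic differences was not tested. The lists of EHMT2 sites were not used here.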

Additional observations from a re-analysis of the deposited data

How the results depend on the processing

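No paired analysis was possible because the list pools both clones, and for the same reason no replicate could be left out. Of 23 alternatives for 8 results, 17 stayed within 1.5 times the value given above and 6 did not. Of 5 added after seeing the data, 4 stayed within it. Counting any transcript start raised the genes with a peak from 6 to 10, and the fibroblast genes from 3 to 5, by construction, as more bases count as a start. With a −log10 q of 10 or more, the peaks of the 10 genes fell from 71 to 24, their median per 10 kb from 0.985 to 0.306 and the fibroblast genes from 3 to 1, as fewer peaks enter. The median percentile of the 6 start peaks among protein-coding start peaks was 28.2. It was 81.3 among all peaks of the list, most of which cover no start. With the strongest transcript start peak of all 10 genes, an alternative added after seeing the data, it was 45.5. This changes both the start and the set of genes, and for the same 6 genes the strongest transcript start peak gave 37.2, also added after seeing the data. Depth limits what single weak peaks show, as a peak of 6 fragments has an interval of 2.2 to 13.1.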
